A study of Rattus norvegicus with 8 samples.

Results

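The miR-146 family of the rat is made up of miR-146a and miR-146b, and its mature arms were followed here in bone marrow mesenchymal stem cells (BMSCs), the adherent stromal cells of marrow, with and without the synthetic glucocorticoid dexamethasone. Members were taken by name as every row for miR-146a or miR-146b with any arm suffix, which gave 4 of the 487 mature miRNAs in the deposited table: rno-miR-146a-5p, rno-miR-146b-5p, rno-miR-146a-3p and rno-miR-146b-3p. The 8 small RNA profiles comprised 4 samples labelled control and 4 given 10 µM dexamethasone for 48 h. The labels used here give no vehicle, rat strain, age or passage, and do not say whether replicates were separate cultures or donors, and the p-values below reflect sample-to-sample spread, which may be technical.

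miR-146a is known from human and mouse cells as a feedback miRNA of innate immune signalling. NF-κB, the transcription factor switched on by Toll-like receptors and the interleukin-1 receptor, induces its gene, and the mature miRNA lowers the adaptor Traf6 and the kinase Irak1, which carry the signal from those receptors to NF-κB. miR-146b comes from a separate gene and shares the seed, the stretch of bases that pairs with target transcripts. The receptor that dexamethasone binds is a nuclear receptor known to restrain transcription driven by NF-κB.

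The mature sequences are shown because the 5p arms of the paralogs differ from each other only near the 3′ end, the part that decides which of them a 5p read is counted for. They are taken from RefSeq (assembly GRCr8), are written 5′ to 3′, and carry the seed (bases 2 to 8) in capitals.
rno-miR-146a-5p: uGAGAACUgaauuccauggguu
rno-miR-146b-5p: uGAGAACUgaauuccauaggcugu
rno-miR-146a-3p: aCCUGUGAaguucaguucuuu
rno-miR-146b-3p: cCUAGGGAcucaguucuggug
The first 17 bases of the 5p arms were identical. Counted from the 5′ end, with the base of miR-146a-5p first, the substitutions were G18A and U21C, and miR-146b-5p had 2 extra bases at its 3′ end (24 against 22 bases). Of 693 mature rat names in the RefSeq table, these 2 alone carried the seed GAGAACU. The 3p arms had different seeds, each held by 1 name, and were identical at 6 of 21 positions. Both 3p arms contained the run UCAGUUCU, the reverse complement of AGAACUGA, which starts at base 3 of each 5p arm. The sources used here do not state how the authors treated reads that match both 5p arms, and each paralog's value carries that uncertainty.

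The hairpins are shown to place the arms, with the mature arms in capitals and the 5p arm first. Mir146a lies on the minus strand of chromosome 10 (GRCr8 chr10:28349996-28350090) and overlaps the annotated lncRNA gene LOC134480673. Mir146b lies on the plus strand of chromosome 1 (GRCr8 chr1:255144860-255144947) and overlaps the protein-coding gene C1h10orf95. Overlap was by position, and the strands of the overlapping genes were not compared. Nfkb2, which encodes an NF-κB subunit, is the fourth protein-coding gene before Mir146b in that annotation. Per the submitters' processing notes the counts were made on mRatBN7.2, a different build, and the annotation was used for names and order only.
Mir146a: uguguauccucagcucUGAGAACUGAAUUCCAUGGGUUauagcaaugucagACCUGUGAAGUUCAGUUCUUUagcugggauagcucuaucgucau
Mir146b: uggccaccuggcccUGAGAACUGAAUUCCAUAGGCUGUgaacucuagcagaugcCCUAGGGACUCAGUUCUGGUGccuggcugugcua

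Total counts ran from 1835256 to 2639007 in control and from 1377881 to 1521505 in dexamethasone samples, so depth and treatment could not be told apart by group. A count of 0 allowed up to 3 counts, which is 1.14 to 1.63 CPM (counts per total library count, scaled to 1e+06) in control and 1.97 to 2.18 CPM in treated libraries, and these limits cover counting error only. Dexamethasone replicate 1 stood apart from the other treated libraries: the chi-square per degree of freedom was 37.0 to 48.6 in the 3 pairs that held it and 7.56 to 20.5 in the other 9 pairs within groups. Results that rest on it are given with and without it.

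miR-146a-5p, the arm of the family with the most reads in control cells, fell 3.41-fold after dexamethasone. It was read at 4351, 4441, 5019 and 5002 CPM across controls 1 to 4 and at 1287, 1415, 1381 and 1338 CPM across treated replicates 1 to 4, from 1843 to 11483 counts a library. Every treated sample lay far below every control, and the treated samples lay close together. The mean went from 4704 ± 357 to 1355 ± 55.6 CPM (SD, n = 4 each), or -1.77 ± 0.06 as a log2 fold change with its SE (edgeR quasi-likelihood adjusted p = 4.63e-10 over 245 tested miRNAs). In the authors' deposited table its log2 fold change was -1.79, with an adjusted p of 2.82e-102. With dexamethasone replicate 1 left out it stood at -1.76 (log2 fold change, edgeR adjusted p = 3.32e-12), and -1.80 when all libraries were thinned to the depth of the smallest (edgeR adjusted p = 3.41e-11). In bulk RNA, fewer cells that express the miRNA and less of it per cell cannot be told apart.

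miR-146b-5p, the paralog with the same seed, was lower by much less. It was read at 1671, 1716, 1534 and 1689 CPM across controls 1 to 4 and at 1595, 1235, 1217 and 1101 CPM across treated replicates 1 to 4. Dexamethasone replicate 1 lay within the control range, so the groups overlapped, while the other 3 treated samples lay below all controls. The mean went from 1652 ± 81.1 to 1287 ± 214 CPM (SD, n = 4 each), or -0.33 ± 0.12 as a log2 fold change with its SE, which passed narrowly (edgeR adjusted p = 0.0343). Once dexamethasone replicate 1 was omitted, the estimate was -0.47 with an SE of 0.08 (log2 scale; edgeR adjusted p = 9.04e-05). The call was lost on leaving out controls 2 or 4, where edgeR gave adjusted p = 0.0576 and 0.0523, and treated replicates 2, 3 or 4, where edgeR gave adjusted p = 0.0563, 0.0722 and 0.0715, with log2 fold changes of -0.32, -0.35, -0.32, -0.31 and -0.23 in that order. In the authors' deposited table its log2 fold change was -0.36, with an adjusted p of 1.74e-05.

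**Figure D1:**
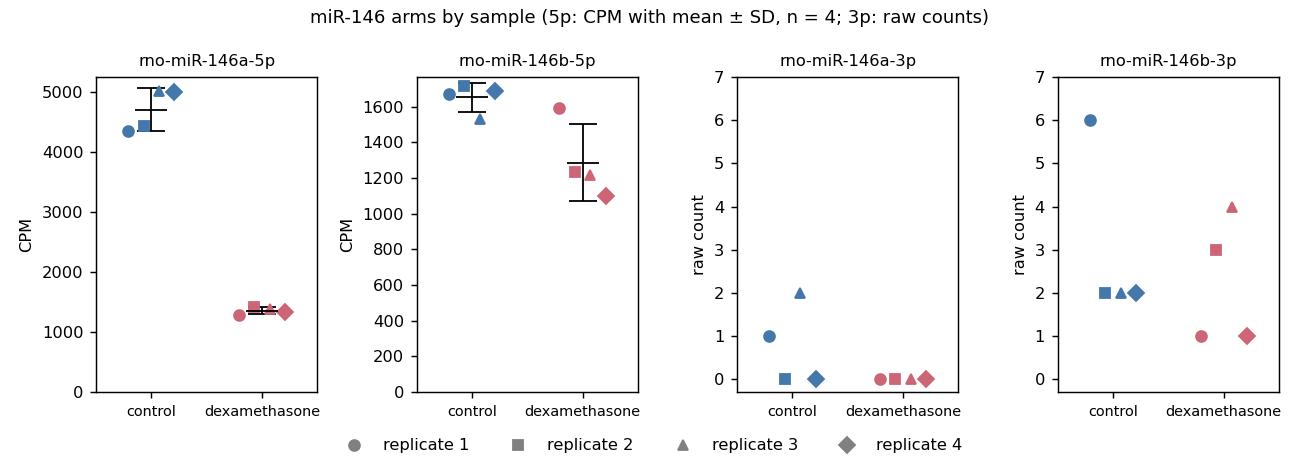
Each panel plots 1 mature arm by sample, control in blue and dexamethasone in red, with marker shape for the replicate number. The 5p arms are in CPM with the mean and SD of 4 samples, and the 3p arms are raw counts with no mean; miR-146a-5p separates the groups (4351 to 5019 against 1287 to 1415 CPM), miR-146b-5p overlaps through dexamethasone replicate 1 at 1595 CPM, and no 3p arm exceeds 6 counts.

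Both tested members were lower, where 21.2% of the 245 tested miRNAs were called lower and 46.1% were called in either direction at an edgeR adjusted p below 0.05 (61 higher and 52 lower, or 41 higher and 71 lower with upper quartile scaling). The treated values of miR-146a-5p lay wholly below its control values, as they did for 20.4% of tested miRNAs. Its log2 fold change was the lowest of the 245 tested, whereas that of miR-146b-5p was in place 51 from the lowest. The median log2 fold change over all tested miRNAs was 0.00. Upper quartile scaling shifted that median by -0.15, and with it the members stood at -1.92 and -0.48 (edgeR adjusted p = 2.30e-11 and 0.0036).

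**Figure D2:**
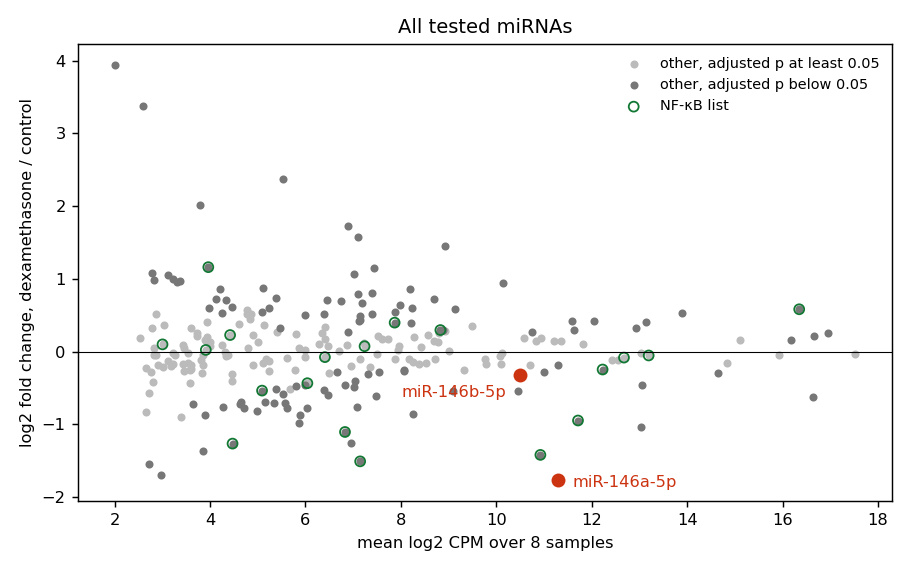
Each point is 1 of the 245 tested miRNAs, with the mean log2 CPM over 8 samples on the horizontal axis and the log2 fold change of dexamethasone over control on the vertical axis; dark grey marks an adjusted p below 0.05 and green rings mark the NF-κB list. miR-146a-5p, in red at -1.77, is the lowest point, and miR-146b-5p sits at -0.33 among miRNAs of similar abundance.

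The make-up of the family differed between the groups. miR-146a-5p supplied 72.2%, 72.1%, 76.6% and 74.8% of the counts of both 5p arms across controls 1 to 4, and 44.6%, 53.4%, 53.2% and 54.9% across treated replicates 1 to 4. The exact 95% Clopper-Pearson interval in dexamethasone replicate 1 was 43.1 to 46.2%, the sole library with more reads counted for miR-146b-5p than for miR-146a-5p. The ratio of miR-146a-5p reads to miR-146b-5p reads was 2.86 ± 0.327 in control cells and 1.08 ± 0.183 in treated cells (SD, n = 4). Dexamethasone replicate 1 was at 0.807 by this ratio and treated replicates 2 to 4 were at 1.15, 1.14 and 1.21, and in those 3 the lower ends of the intervals for the share of miR-146a-5p were 51.8%, 51.5% and 53.2%. Counts are reads captured in a library, not molecules, so a ratio between arms of different sequence has no absolute meaning, while its change between groups does not depend on scaling.

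The log2 ratio of miR-146a-5p to miR-146b-5p averaged 1.51 ± 0.16 among controls and 0.09 ± 0.27 after dexamethasone (SD, n = 4), a difference of -1.42, or 2.68-fold. The groups did not overlap, and the exact two-sided permutation p was 0.0286, the smallest that 70 assignments allow. After Benjamini-Hochberg adjustment over the 3 ratios examined in the family it was 0.0857, which missed 0.05. With that smallest p, the ratio of the paralogs could pass after adjustment only if another of the 3 ratios reached the same p. A test added after the data were seen set this ratio among all 100 pairs of tested miRNAs that share a seed, in limma across all pairs. There the difference was -1.42 ± 0.14 (SE, limma adjusted p = 1.82e-04), and 51.0% of the pairs passed. Pairs from 1 seed share members, so they are not independent. By size of the difference the miR-146 pair was in place 2 of 100, after miR-326-3p and miR-330-5p, and the median size was 0.27. Without dexamethasone replicate 1 the difference was -1.29, in a design of 4 against 3 where the exact two-sided permutation p cannot go below 0.0571.

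Taken as a sum, the 5p arms with the shared seed were at 6023, 6157, 6553 and 6691 CPM across controls 1 to 4 and at 2882, 2650, 2598 and 2439 CPM across treated replicates 1 to 4. All treated sums lay below all control sums. The mean sum went from 6356 ± 317 to 2642 ± 183 CPM (SD, n = 4), a difference of 3714 CPM, of which miR-146a-5p made up 90.2% and miR-146b-5p 9.84%. When the counts of both were merged into 1 row, as a value that does not depend on how reads were split between them, the log2 fold change was -1.25 ± 0.08 (SE).

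**Figure D3:**
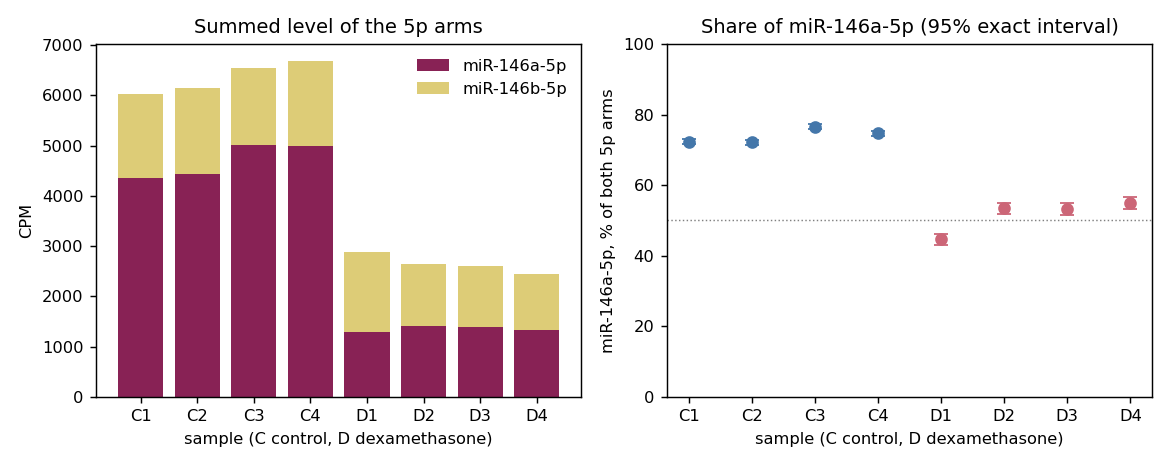
On the left, stacked bars give the CPM of miR-146a-5p and miR-146b-5p in each sample (C control, D dexamethasone, with the replicate number), from 6023 to 6691 CPM in control and from 2439 to 2882 CPM in treated samples. On the right, points give the share of miR-146a-5p in the counts of both arms with exact 95% intervals for counting error, at 72.1 to 76.6% in control and 44.6 to 54.9% in treated samples, and the dotted line marks equal shares.

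The 3p arms, the passenger strands of these hairpins, were near the limit of detection. miR-146a-3p had 1, 0, 2 and 0 counts in control replicates 1 to 4 and 0 counts in every treated library, and miR-146b-3p had 6, 2, 2 and 2 counts in control and 1, 3, 4 and 1 counts in treated replicates 1 to 4. Neither passed the count filter, so of the 4 members 2 were tested. With no filter, the edgeR adjusted p was 0.349 for miR-146a-3p and 0.849 for miR-146b-3p, and a change in either was not detectable at this depth. In the authors' deposited table their adjusted p-values were 0.793 and 1.

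Almost all reads of both hairpins came from the 5p arm. Pooled over control libraries, 3 of the reads of miR-146a were from the 3p arm against 42255 from the 5p arm, a share of 0.0071% (exact 95% interval 0.00146 to 0.0207%), and in treated libraries it was 0 against 7823, a share of 0% with an exact 95% upper limit of 0.0471%. For miR-146b the share was 0.0799% in control (0.0413 to 0.139%, 12 against 15012 counts) and 0.121% in treated libraries (0.0553 to 0.229%, 9 against 7436 counts). The intervals of control and treated libraries overlap for each hairpin. They pool reads over libraries and cover counting error only, so their overlap does not settle whether arm use differed. The log2 ratio of 5p to 3p, with 0.5 added to each count, differed by -1.45 for miR-146a and by -0.63 for miR-146b between dexamethasone and control (exact two-sided permutation p = 0.143 and 0.257, adjusted p = 0.214 and 0.257 over 3 ratios). With 3p counts of 0 to 2, the added count sets the ratio of miR-146a: with 1 added in its place, the difference was -1.78 and the exact permutation p 0.0286. After thinning to the smallest library the difference was -0.82 and the exact permutation p 0.314.

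By abundance, miR-146a-5p moved from rank 23 to rank 37 of the 487 miRNAs, and miR-146b-5p from rank 37 to rank 38. The 3 tested miRNAs next above miR-146a-5p in control were miR-24-3p, miR-99b-5p and miR-221-3p, and the 3 next below were miR-29b-3p, miR-25-3p and miR-132-3p. Their log2 fold changes were -0.12, -0.25 and -0.95 above it and 0.43, 0.10 and -1.42 below it, of which those of miR-24-3p and miR-25-3p did not pass (edgeR adjusted p = 0.0944 and 0.159). Among the 42 tested miRNAs with a control mean of at least 1000 CPM, 12 were lower and 11 higher, and miR-146a-5p had the lowest log2 fold change.

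Over the 8 samples, the miRNAs whose log2 CPM followed miR-146a-5p most closely were miR-31a-5p (Pearson r = 0.994), miR-22-5p (0.991), miR-132-5p (0.989) and miR-340-5p (0.989). These coefficients are a description: the samples form 2 separate groups, and any miRNA with a steady fall scores high. Each of the 4 was lower in every treated sample than in every control, as were 20.4% of all tested miRNAs. They stood at -1.04 ± 0.06, -0.77 ± 0.14, -1.51 ± 0.11 and -0.76 ± 0.09 in that order (log2 fold change ± SE, edgeR adjusted p from 5.06e-08 to 7.87e-04). The choice by correlation used these same values and favours such a separation, so the falls are a description too. The paralog miR-146b-5p was in place 56 by this measure (r = 0.697).

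Other miRNAs known to respond to NF-κB or Toll-like receptor signals or to act on that pathway moved in both directions. Of 23 arms of 13 such miRNAs, 19 were tested, and 7 were lower, 4 higher and 8 did not pass, with a median log2 fold change of -0.08 against 0.00 over all tested miRNAs. Over all tested miRNAs 46.1% were called in either direction and 21.2% lower. With upper quartile scaling, 9 arms of the list were lower and 2 higher. Under that scaling 71 of the 245 tested miRNAs were lower and 41 higher, against 52 lower and 61 higher in the main fit. The lower arms included both arms of miR-132 and miR-212, which come from 1 transcript induced by the factor CREB, from -1.11 to -1.51 (log2 fold change, edgeR adjusted p up to 4.36e-04). They also included miR-221-3p, a repressor of cell cycle inhibitors, at -0.95 ± 0.09, miR-125a-3p at -0.54 ± 0.17 and miR-99b-5p at -0.25 ± 0.05 as log2 fold changes with SE, for which edgeR gave adjusted p = 7.20e-06, 0.0214 and 0.00209.

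miR-155-5p, the other classic NF-κB-induced miRNA and one that promotes inflammation in mouse macrophages, went the other way from miR-146a-5p. It was read at 416, 394, 435 and 409 CPM across controls 1 to 4 and at 480, 483, 523 and 505 CPM across treated replicates 1 to 4. All treated samples lay above all controls, by 0.30 ± 0.07 on the log2 scale (± SE; edgeR adjusted p = 0.00426), but with upper quartile scaling it was 0.14 and did not pass (edgeR adjusted p = 0.172). miR-21-5p rose by 0.58 ± 0.06, miR-187-3p by 1.16 ± 0.22 and miR-301a-3p by 0.40 ± 0.11 on the log2 scale (± SE), and edgeR gave adjusted p = 1.29e-05, 0.00106 and 0.00864. miR-301a-3p, a miRNA known to sustain NF-κB activity in human cancer cells, did not pass with upper quartile scaling (edgeR adjusted p = 0.0788) or on leaving out control 4 (edgeR adjusted p = 0.0552). miR-125a-3p did not pass without control replicate 1, without dexamethasone replicate 2 or after thinning (edgeR adjusted p = 0.055, 0.0541 and 0.0538). Of the abundant members that did not pass, let-7e-5p was at -0.08, miR-125a-5p at -0.05 and miR-21-3p at 0.07 (log2 fold change, edgeR adjusted p from 0.401 to 0.758). let-7e-5p passed as lower on leaving out treated replicate 1 and under upper quartile scaling (log2 fold change -0.16 and -0.23, edgeR adjusted p = 0.0242 and 0.0356). miR-222-3p, at -0.44 and not past the threshold (edgeR adjusted p = 0.0929), passed as lower in 5 alternatives, among them upper quartile scaling (-0.58, edgeR adjusted p = 0.0200) and leaving out treated replicate 4 (-0.68, edgeR adjusted p = 0.00228). It is named after its values were seen.

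**Figure D4:**
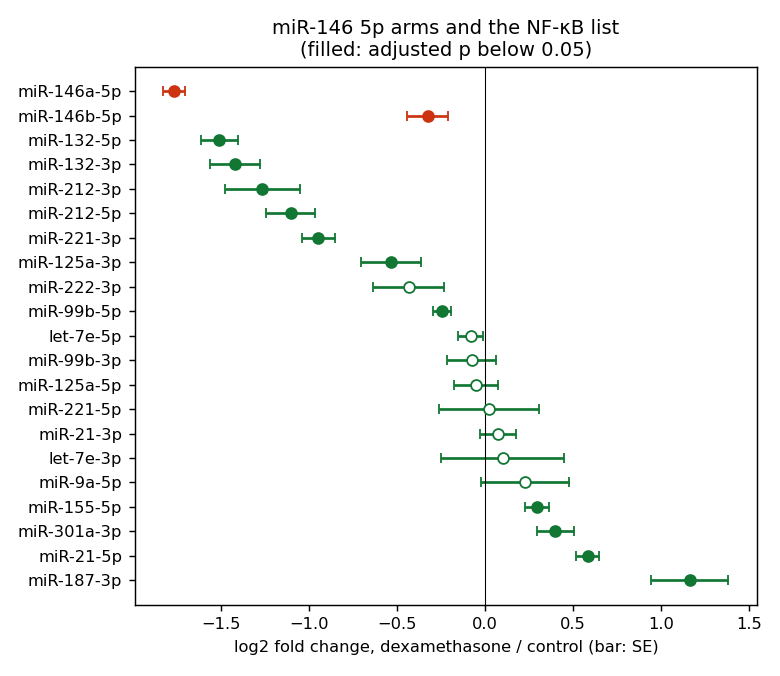
Points give the log2 fold change of dexamethasone over control and bars its SE, for the tested miR-146 arms in red and the 19 tested arms of the NF-κB list in green, with filled points for an adjusted p below 0.05. miR-146a-5p at -1.77 lies beyond every arm of the list, and among the filled points miR-155-5p, miR-301a-3p, miR-21-5p and miR-187-3p lie to the right of 0.

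Marker miRNAs of the labelled cell type and of other cell types a marrow culture could hold were read beside these results. The mesenchymal miRNAs miR-199a, miR-214, miR-143 and miR-145 summed to 131606 to 137236 CPM in control and 141508 to 144321 CPM in treated samples (of 7 tested arms 2 rose, 2 fell and 3 did not pass, where 46.1% of all tested miRNAs were called), and 7 epithelial arms of the miR-200 family summed to at most 10.5 CPM. The haematopoietic list (7 arms of miR-142, miR-223, miR-150, miR-144 and miR-451) summed to 36.4 to 47.7 CPM in control and 50.4 to 68.2 CPM in treated samples, and of its 2 tested arms miR-142-3p rose by 0.54 ± 0.13 on the log2 scale (± SE; edgeR adjusted p = 0.00479), opposite in direction to miR-146a-5p. The endothelial miR-126a moved with miR-146a-5p: its 2 arms summed to 1790 to 2000 CPM in control and 1163 to 1331 CPM in treated samples, and the log2 fold changes were -0.55 ± 0.07 for the 3p and -0.41 ± 0.12 for the 5p arm (± SE), both past the threshold by edgeR (adjusted p = 3.54e-05 and 0.0119). No listed arm was at 0 in all 8 samples, and the part of these markers in the lower miR-146a-5p was not tested.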

How the data were processed

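Per the labels' protocols, total RNA was extracted with a Qiagen miRNA kit; the library kit named is one for total RNA. Per the submitters' processing notes, Bowtie 1.0 and the build mRatBN7.2 were used; no counter or miRNA annotation is stated there. The deposited table holds whole-number read counts per mature miRNA, CPM by the authors (equal to count over column total within 4.98e-05), their group mean CPM, log2 fold change and p-value. No source used here names the test behind that deposited p-value.

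The main test was the quasi-likelihood test of edgeR 4.0.16 (R 4.3.3), with group alone in the design, TMM scaling, the filterByExpr filter and Benjamini-Hochberg adjustment over the 245 of 487 miRNAs kept (threshold 0.05). The SE is the log2 fold change over the square root of F. The biological coefficient of variation was 10.4%. Ratios were compared by exact two-sided permutation with 0.5 added to counts. Same-seed pairs were tested with limma 3.58.1; 222 of 245 tested names had a RefSeq sequence. Scripts were tested on simulated data. No library pair agreed within sampling noise.

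Alternatives were RLE, upper quartile and total-count scaling, DESeq2 1.42.0, limma voom, no filter, 10 CPM in 4 samples, thinning, a replicate block, merged paralogs and leaving out each replicate. Members, lists and rules were chosen with earlier results of these data known. Named miRNAs are the 4 members, the 4 closest in pattern and 3 next above and below in abundance to miR-146a-5p, and list members past the threshold or at 100 CPM or more.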

Additional observations from a re-analysis of the deposited data

Results flagged for a closer look

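A sample stood far from the other 3 of its group in 4 of 62 groups of 4 examined, where chance gives about 1 in 20. The log2 ratio of miR-146a-5p to miR-146b-5p was -0.31 in dexamethasone replicate 1 and 0.18 to 0.28 in the other treated replicates. miR-146b-3p was at 2.27 CPM (6 counts) in control replicate 1 and 0.852 to 1.09 CPM in the other controls. miR-132-3p was at 3519 CPM in control replicate 1 and 3151 to 3169 CPM in the other controls. miR-21-5p was at 63622 CPM in control replicate 2 and 70225 to 71257 CPM in the other controls.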

How the results depend on the processing

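miR-146a-5p was lower in all 18 alternatives, and in the 17 that were tested it passed; its log2 fold change ran from -1.92 (upper quartile scaling) to -1.73 (without dexamethasone replicate 4), or -1.25 with the paralogs merged. miR-146b-5p was lower in all 17 alternatives and passed in 12; leaving out 1 replicate gave -0.47 to -0.23, and the call was lost in 5 of those 8 fits. The cause was not tested. Deviations of same-numbered samples correlated at -0.21 to 0.08, so the numbers were not taken to pair samples. With the replicate block the log2 fold changes were -1.77 and -0.35, and both passed; no call of a member changed. Counts of called miRNAs ran from 97 to 130 (main 113) and of called arms in the NF-κB list from 10 to 12 (main 11). The log2 ratio of miR-146a-5p to miR-146b-5p ran from -1.48 to -1.29; leaving out 1 replicate, or pairing by number, cannot bring its permutation p to 0.05. The 5p to 3p difference of miR-146a was -1.78 with a pseudocount of 1 (exact permutation p = 0.0286, unadjusted). After thinning it was -0.82 (exact permutation p = 0.314, unadjusted). Treated counts of miR-146a-3p were all 0, so the added count sets this difference. Depth limits the 3p arms, and the library totals differ by group.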
